A study of Mus musculus with 9 samples.

Results

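The genes of V(D)J recombination and of the end joining that completes it were followed in mouse thymocytes before and after lymphoma formation. The set held 10 genes: Rag1, Rag2, Dntt, Polm, Xrcc5, Xrcc6, Prkdc, Lig4, Xrcc4 and Nhej1. Every probe set annotated to a single gene symbol among these was taken, which gave 15 probe sets of 45037, and 10 genes of the 18193 named on the array. All 15 probe sets passed the filter on dim signals, and all 10 genes were among the 11644 tested.

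V(D)J recombination assembles antigen receptor genes from separate segments in developing lymphocytes. The RAG1 and RAG2 proteins cut the DNA beside the segments, the Ku heterodimer and the kinase DNA-PKcs hold and process the ends, and DNA ligase IV with XRCC4 and XLF seals them. Terminal deoxynucleotidyl transferase adds bases that no template encodes at the joints. In CD4+CD8+ double-positive (DP) thymocytes this machinery rearranges the T cell receptor α locus, and transcription of the RAG genes is normally shut off once a receptor has been positively selected.

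Each of the 9 arrays came from a different C57Bl/6 mouse, and every mouse was homozygous for the R26NC allele, a Cre-dependent form of active β-catenin. The control group was sorted DP thymocytes of 2 mice without Cre (R26NC/NC CD4Cre-), aged 6 weeks. The pre-transformed group was sorted DP thymocytes of 3 mice with Cre (R26NC/NC CD4Cre+), also aged 6 weeks. The tumour group was unsorted thymic lymphomas of 4 R26NC/NC CD4Cre+ mice aged 28, 26, 23 and 21 weeks, called tumours 1 to 4 in that order. Cre is driven by Cd4 control elements, so that β-catenin is activated from the DP stage onward. The sorted cells were over 98% DP and gave 0.1 µg RNA for an amplification kit, whereas at least 95% of the tumour cells were CD4+CD8+ and 2.5 µg RNA was labelled by the standard protocol. Tumour state, age, sorting and labelling therefore change together, and their parts in any tumour difference cannot be told apart.

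Signals are MAS5 intensities on a linear scale on which the trimmed mean of every array is 100. Group values below are geometric means, SDs and standard errors are in log2 units, and differences with an adjusted p under 0.05 (limma, Benjamini-Hochberg over all genes tested) are those called here. A group was termed dim where its mean lay under the 65th percentile of its arrays (40.8 in controls, 43.7 in pre-transformed cells and 35.9 in tumours), and folds against a dim group are given as at least a value. The arrays of a group are different mice, so the p-values rest on the spread between mice. In the tumour comparisons that spread is pooled over tumour and sorted arrays. For each gene of the set, by its brightest probe set, the tumours varied more than either sorted group. For Rag1 the SD was 1.18 in tumours and 0.03 in pre-transformed cells. The p-values of the tumour comparisons can therefore understate the spread between tumour mice for these genes.

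The arrays were checked for the labelled cell type with 9 DP thymocyte markers. Their summed signal was 21784 to 23999 on the 5 sorted arrays and 11111 to 15824 on the tumour arrays. Cd4 stayed at 1234 in tumours against 996 in pre-transformed cells, while Cd3e was at 489 against 1904 and Ptcra at 4.31 against 230.3. The summed signal of 10 myeloid markers was 137 to 286 on sorted arrays, 3078 to 3413 in tumours 1, 3 and 4, and 165 in tumour 2. The sum of 7 B cell markers was 1792 to 3065 on sorted arrays, 1800 to 5644 in tumours 1, 3 and 4, and 257 in tumour 2. Most of it was Ighm, at 1553 to 2779 on sorted arrays and 5141, 239, 4997 and 1139 in tumours 1 to 4. On every sorted array 5 of the 7 lay under the 65th percentile. The B cell markers did not move alike. Ms4a1 was at 1.5 to 8.9 on sorted arrays and 198, 5, 139 and 269.7 in tumours 1 to 4. Cd79b was at 196 to 254 and at 80.7, 1.3, 73.6 and 109. The 2 erythroid markers summed to 0.9 to 1.6 on sorted arrays and 4.3 to 61.3 in tumours. The 6 early thymocyte markers summed to 44.3 to 73 on sorted arrays and 53.2 to 188 in tumours, the 8 stromal ones to 155 to 224 and 184 to 431, and the 6 of natural killer and mature T cells to 45.1 to 54.6 and 48.8 to 150.2. The 3′ minus 5′ difference of β-actin, a sign of RNA length, was 0.198 to 0.348 log2 on sorted arrays and 0.544 to 1.144 in tumours. That of GAPDH was not higher in tumours, at -0.336 to -0.011 on sorted arrays and -0.526 to -0.102 in tumours. The 2 controls thus differ, and RNA length was not settled. In whole tumours, fewer cells that carry a transcript and less of it per cell cannot be told apart.

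The RAG genes and Dntt were the members with the largest falls in tumours, and Xrcc5 was the only member called higher there, so the 250 bases upstream of their RefSeq starts are shown. Positions are in GRCm38.p6 and all sequences run toward the start. Rag1 lies on the minus strand (chr2:101649533-101649782) and Rag2 on the plus strand (chr2:101624462-101624711), with 0 other genes between them in the RefSeq table. Dntt is on the plus strand (chr19:41029025-41029274), as is Xrcc5 (chr1:72307171-72307420). Capitals mark matches, on either strand, to CAGNTG (the E protein E-box), TGTGGT (RUNX), CACGTG (the MYC E-box) or CCAAT.
Rag1: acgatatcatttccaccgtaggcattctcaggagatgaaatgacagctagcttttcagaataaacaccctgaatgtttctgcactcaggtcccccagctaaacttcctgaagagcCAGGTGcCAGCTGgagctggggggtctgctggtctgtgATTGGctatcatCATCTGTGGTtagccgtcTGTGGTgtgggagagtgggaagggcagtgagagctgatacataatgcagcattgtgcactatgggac
Rag2: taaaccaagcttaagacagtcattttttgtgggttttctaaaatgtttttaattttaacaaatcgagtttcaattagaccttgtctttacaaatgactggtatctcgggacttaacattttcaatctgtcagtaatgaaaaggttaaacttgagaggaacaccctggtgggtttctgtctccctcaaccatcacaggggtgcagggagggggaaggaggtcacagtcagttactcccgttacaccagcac
Dntt: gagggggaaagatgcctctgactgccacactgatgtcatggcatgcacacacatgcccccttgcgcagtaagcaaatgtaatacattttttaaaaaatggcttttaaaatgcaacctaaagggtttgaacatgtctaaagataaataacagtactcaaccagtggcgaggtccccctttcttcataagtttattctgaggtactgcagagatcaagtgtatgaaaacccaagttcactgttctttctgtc
Xrcc5: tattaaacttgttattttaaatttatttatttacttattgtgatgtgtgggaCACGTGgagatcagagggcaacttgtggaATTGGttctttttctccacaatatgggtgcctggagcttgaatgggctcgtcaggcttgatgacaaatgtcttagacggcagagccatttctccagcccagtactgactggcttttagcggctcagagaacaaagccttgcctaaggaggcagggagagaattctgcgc

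The Rag1 window held 3 matches to CAGNTG, whose first bases lay 135, 128 and 85 bases before the start, and 2 to TGTGGT, at 81 and 67 bases. The match at 81 overlaps the E-box at 85. CAGNTG occurred in 44.8% of 32841 mouse windows of the same length and TGTGGT in 14.0%. The Xrcc5 window held CACGTG, the E-box bound by MYC, 198 bases before the start, which 6.02% of windows contain. CCAAT, in 33.9% of windows, was present in the Rag1 and Xrcc5 windows. The Rag2 and Dntt windows matched none of the 6 words searched, which also included CTTTGA (TCF/LEF) and TGTTTAC (FOXO), in 13.8% and 3.17% of windows. These last words matched none of the 10 windows of the 9 members with an entry (Lig4 has 2 starts). A match is a string of letters and was not tested for binding.

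The same windows differed in base composition. The Rag1, Rag2 and Dntt windows held 3, 3 and 2 CpG dinucleotides, against a median of 6 over all windows. Those of Xrcc6, Xrcc4 and Lig4 held 25, 26 and 27 or 28. Xrcc5 with 5, Nhej1 with 9 and Polm with 13 lay between. GC content was 41.2% for Rag2, 41.6% for Dntt and 50.8% for Rag1, 65.2% for Xrcc6 and 68.0% for Xrcc4.

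No member was called different between pre-transformed and control DP thymocytes, the comparison made before tumours form. Cre and active β-catenin change together in it, and their parts cannot be told apart. In simulated data 47.7% of changes of 1 log2 unit were recovered in this comparison, so smaller differences can be missed. Of all genes tested, 1.63% were called in that comparison (1.11% higher and 0.524% lower), a split of 129 higher and 61 lower that median centring turned to 77 and 113. Leaving out 1 array gave 18 to 159 higher and 0 to 132 lower. Of the 10 members, 2 had an unadjusted p under 0.05 in limma, beside 2046 of the 11644 genes tested. The count of members called was 0 without any single array, and 1 (Lig4 higher) after quantile normalization. The median change of the members was 0.06 log2, beside 0.02 for all genes. The signals of 4 members were higher on every pre-transformed array than on both controls (Rag1, Dntt, Lig4 and Polm) and those of 1 (Nhej1) were lower, where 36.3% of all genes showed no overlap (20.6% higher and 15.6% lower).

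In tumours against pre-transformed cells, 7 members were called lower and 1 higher, in a comparison in which 54.9% of all genes were called. Of all genes, 31.0% were called lower and 23.9% higher. After every array was centred on its median the all-gene split moved from 3607 lower and 2785 higher to 4279 and 1877. The median change was -0.86 over the members and -0.12 over all genes. The lower members were Rag1, Rag2, Dntt, Polm, Prkdc, Lig4 and Nhej1. The higher one was Xrcc5, while Xrcc6 and Xrcc4 did not pass the test. The arrays of the 2 groups did not overlap for 7 members with lower and 1 with higher signals, beside 57.0% of all genes (32.1% lower and 24.8% higher).

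Against control DP cells, 4 members were called lower in tumours (Rag1, Rag2, Dntt and Nhej1) and Xrcc5 was called higher, where 45.7% of all genes were called, 25.2% lower and 20.5% higher. Median centring moved that all-gene split from 2936 lower and 2387 higher to 4132 and 1253. The members' median change was -0.84, beside -0.08 for all genes. The arrays did not overlap for 5 members with lower and 1 with higher signals, beside 60.5% of all genes (33.1% lower and 27.4% higher). Both tumour comparisons rest on the same 4 tumours.

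**Figure D1:**
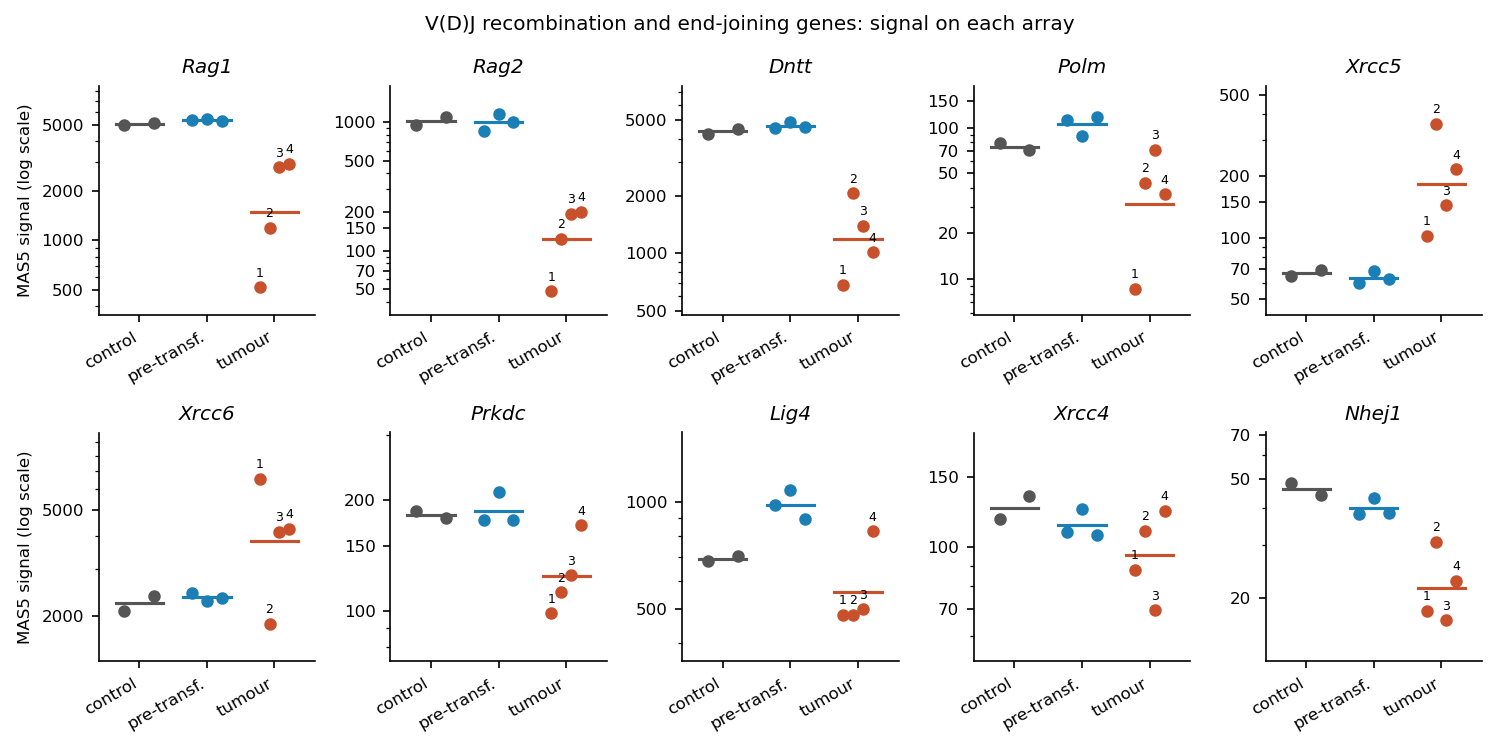
MAS5 signal of the 10 genes on each array (log scale, 1 panel per gene, the brightest probe set of each). Points are arrays of the 2 control, 3 pre-transformed and 4 tumour mice, horizontal lines are group geometric means, and tumours carry their number. Rag1, Rag2, Dntt, Prkdc and Nhej1 lie lower in all 4 tumours than on any sorted array, and Xrcc5 lies higher.

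Rag1 encodes the recombinase subunit that carries the DNA-cutting active site. Its signal was 5001.7 and 5169.2 in controls, 5349.3, 5459.9 and 5272.7 in pre-transformed cells, and 520.2, 1194.6, 2772.6 and 2914.5 in tumours 1 to 4. The sorted arrays were tightly grouped and all 4 tumours lay below them, with tumours 3 and 4 above tumours 1 and 2. Rag1 fell by 1.84 ± 0.50 (SE) log2 units in tumours against pre-transformed cells, a 3.58-fold lower mean (1497, SD 1.18, n = 4, against 5360, SD 0.03, n = 3; limma adjusted p = 0.0107). Against controls the change was -1.76 ± 0.57 (adjusted p = 0.0282). That second call was lost without control 1 (adjusted p = 0.122) or control 2 (0.123), and with a common floor, no trend of the spread or only the groups compared in the fit (0.0877, 0.0544 and 0.0643).

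Rag2 encodes the partner subunit, which binds RAG1 and recognises modified histone H3 at active chromatin. Its signal was 946.1 and 1106 in controls, 855, 1169.1 and 997.7 in pre-transformed cells, and 48.4, 124.3, 194.9 and 201.4 in tumours 1 to 4. No tumour came near the sorted range. The mean was 8.06-fold lower in tumours (124, SD 0.96, n = 4) than in pre-transformed cells (999, SD 0.23, n = 3), a change of -3.01 ± 0.43 log2 units (adjusted p = 0.000275). It was 8.25-fold lower than in controls (1023; adjusted p = 0.000917). Among the members this was the largest change in either direction, and it was called under each of the 21 alternative settings.

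The tumours ranked alike for both RAG genes, with tumour 1 lowest and tumour 4 highest. Relative to the pre-transformed mean, Rag1 was at -3.37, -2.17, -0.95 and -0.88 log2 units in tumours 1 to 4, and Rag2 at -4.37, -3.01, -2.36 and -2.31. Rag2 was thus displaced further than Rag1 in every tumour. The Rag2 minus Rag1 signal, followed within arrays, was 1.17 log2 units lower in tumours than in pre-transformed cells, with ranges of -3.86 to -3.26 and -2.65 to -2.22 that did not overlap. An exact two-sided permutation test gave p = 0.0571, the smallest that 35 splits allow, and 0.257 adjusted over the 9 pair comparisons made. The pairs were chosen after their values were seen.

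Tumour 2 had a myeloid marker sum within the range of sorted cells and a B cell sum below it. The myeloid markers were not alike there, with Lyz2 at 3.1, its lowest on any array, and Itgam at 113, its highest. For Rag1, Rag2 and Dntt tumour 2 lay below every sorted array, and for Xrcc5 above every one. The share of other cells in the tumour values was not tested. A fit with tumour 2 as the only tumour, added after seeing the data, takes its spread from the sorted arrays, which vary less than the tumours in Rag1 and Rag2, so its p-values and calls are not given.

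**Figure D2:**
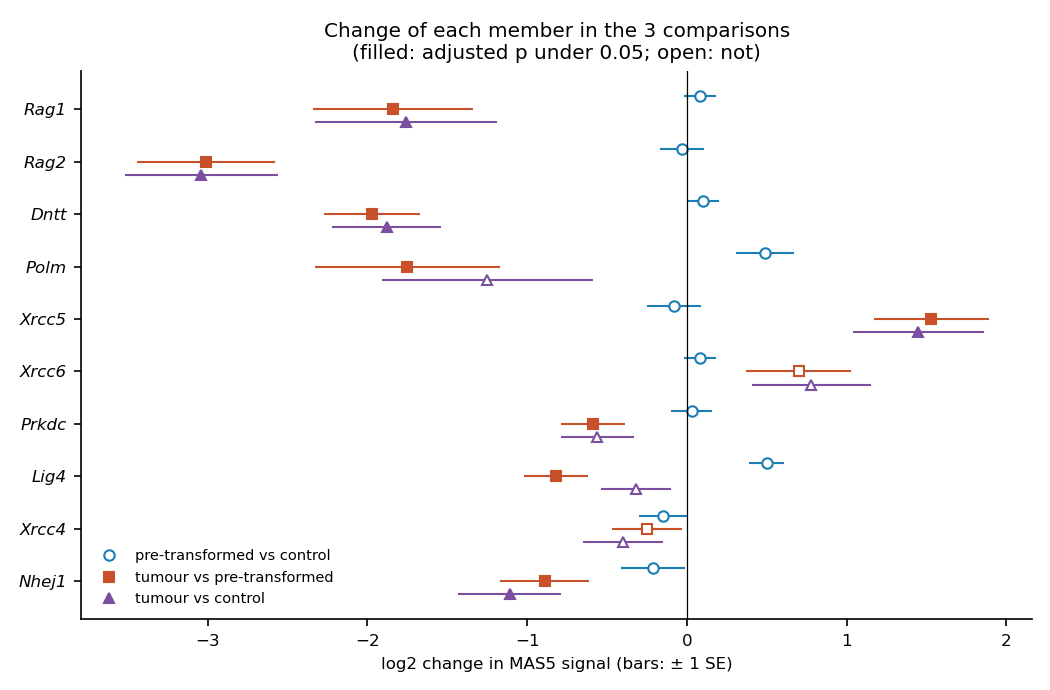
Log2 change of each gene in pre-transformed against control cells (circles), tumours against pre-transformed cells (squares) and tumours against controls (triangles), with bars of 1 SE and filled symbols for an adjusted p under 0.05. The changes before tumour formation lie between -0.21 and 0.50 and are all open, while those in tumours run from -3.04 to 1.53.

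Dntt encodes terminal deoxynucleotidyl transferase. The brightest of its 3 probe sets read 4231 and 4513.9 in controls, 4536.6, 4888.1 and 4601.5 in pre-transformed cells, and 683.2, 2068.4, 1393.7 and 1016.7 in tumours 1 to 4. The tumours did not overlap the sorted arrays, and here tumour 2 was the highest of them. Dntt fell by 1.97 ± 0.30 log2 units against pre-transformed cells, a 3.93-fold lower mean (1190, SD 0.68, n = 4, against 4673, SD 0.06, n = 3; adjusted p = 0.000413). It was 3.67-fold lower than in controls (4370; adjusted p = 0.0018). When every probe set was tested on its own, which called 49.8% of those kept, the other 2 gave changes of -2.11 (adjusted p = 0.000553) and -1.69 (adjusted p = 0.000696).

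Polm encodes DNA polymerase μ, a relative of terminal transferase that fills gaps at the ends and acts on light chain joints in B cells. Its signal was low throughout, at 79.1 and 70.8 in controls, 112, 88.1 and 118.4 in pre-transformed cells, and 8.6, 43.4, 71.5 and 36.5 in tumours. Tumour 3 overlapped the controls, and 2 of the 4 tumour arrays lay under their 65th percentile. Against pre-transformed cells the change was -1.75 ± 0.58 (adjusted p = 0.028), at least 2.94-fold lower because the tumour mean of 31.4 was dim. That call was lost without pre-transformed 1, 2 or 3 (adjusted p = 0.0779, 0.0554 and 0.083) and after quantile normalization (0.0676). Against controls it did not pass (-1.25 ± 0.66, adjusted p = 0.146), nor did the difference of 0.49 ± 0.18 between pre-transformed and control cells (adjusted p = 0.206).

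Xrcc5 encodes the larger subunit of Ku, the ring that threads onto broken DNA ends and recruits DNA-PKcs. Its signal was 64.7 and 69.8 in controls, 59.7, 68.9 and 62.7 in pre-transformed cells, and 101.9, 359.3, 143.6 and 215.3 in tumours 1 to 4. All 4 tumours lay above all 5 sorted arrays, tumour 2 by the widest margin. Xrcc5 rose by 1.53 ± 0.36 log2 units against pre-transformed cells, a 2.88-fold higher mean (183, SD 0.78, n = 4, against 63.7, SD 0.11, n = 3; adjusted p = 0.00547). Against controls it was 2.73-fold higher (67.2; adjusted p = 0.017), a call that was lost without control 1 or 2 (0.106 and 0.0792) and after median centring (0.0934).

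Xrcc6 encodes the smaller Ku subunit. Its signal was 2096.8 and 2390.4 in controls, 2453.7, 2287 and 2352 in pre-transformed cells, and 6570.8, 1877.9, 4151.6 and 4264 in tumours 1 to 4. Tumours 1, 3 and 4 lay above every sorted array and tumour 2 below them all. The group difference did not pass the test against pre-transformed cells (0.70 ± 0.33, adjusted p = 0.0948) or controls (0.78 ± 0.37, adjusted p = 0.111). Without tumour 2 it was called higher in both (adjusted p = 0.000817 and 0.00148). On these probe sets the extreme tumours were swapped between the Ku subunits, with tumour 2 highest and tumour 1 lowest for Xrcc5. Tumour 3 lay below tumour 4 for both. The Xrcc5 minus Xrcc6 signal ranged from -6.01 to -2.39 log2 units in tumours and from -5.36 to -5.05 in pre-transformed cells, and the groups were not separated (exact permutation p = 0.457, adjusted 0.686). A second Xrcc6 probe set, dim in controls and tumours, read 27.8 and 34 in controls and 65, 50 and 56.9 in pre-transformed cells. In tumours 1 to 4 it read 39.1, 6, 73.5 and 71.7, also lowest in tumour 2 but highest in tumour 3. Its change against pre-transformed cells had the opposite sign, -0.77 ± 0.76 (limma adjusted p = 0.416), so no direction is settled for Xrcc6. Between pre-transformed and control cells it was 0.89 ± 0.22 with no overlap (limma adjusted p = 0.109).

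Prkdc encodes DNA-PKcs, the kinase that Ku brings to the ends. Its signal was 186.4 and 178.2 in controls, 176.3, 209.4 and 176.1 in pre-transformed cells, and 98.7, 112.5, 125 and 170.5 in tumours 1 to 4. Tumour 4 came close to the sorted arrays. The mean was 1.5-fold lower in tumours (124, SD 0.34, n = 4) than in pre-transformed cells (187, SD 0.14, n = 3), a change of -0.59 ± 0.20 (adjusted p = 0.0327). The call held in 12 of 21 alternatives. It was lost without any one of control 1, control 2, pre-transformed 1 to 3, tumour 1 or tumour 2, with adjusted p = 0.0535, 0.0535, 0.0668, 0.118, 0.0693, 0.065 and 0.0549. It was also lost with quantile normalization (0.136) or with only the groups compared in the fit (0.0537). Against controls it did not pass (-0.56 ± 0.23, adjusted p = 0.0737), though it did without tumour 4 (0.0158) and after median centring (0.0112).

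Lig4 encodes DNA ligase IV, which seals the joint. Its signal was 680.5 and 704.7 in controls, 980.2, 1077.8 and 894.8 in pre-transformed cells, and 481, 481.3, 498.5 and 827.2 in tumours 1 to 4. Tumours 1 to 3 were within a narrow band below the controls, and tumour 4 lay between the controls and the pre-transformed arrays. Lig4 fell by 0.82 ± 0.20 log2 units against pre-transformed cells, a 1.77-fold lower mean (556, SD 0.38, n = 4, against 981, SD 0.13, n = 3; adjusted p = 0.00575). Against controls the change was -0.32 ± 0.22 (adjusted p = 0.267), and -0.51 without tumour 4 (adjusted p = 0.0166). After median centring it was -0.7 (adjusted p = 0.0313). Between pre-transformed and control cells Lig4 had the largest difference among the brightest probe sets of the members. It was 0.50 ± 0.11, with a 1.42-fold higher mean and no overlap. This missed the threshold (adjusted p = 0.0672) and passed it after quantile normalization (0.0456). The second Xrcc6 probe set had a larger difference, 0.89, which was not called.

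Xrcc4 encodes the scaffold that stabilises ligase IV. Its signal was 118.1 and 134.3 in controls, 109.3, 125 and 107.3 in pre-transformed cells, and 88, 110.2, 69.6 and 123.6 in tumours 1 to 4. The 3 groups overlapped, with differences of -0.25 ± 0.22 between tumours and pre-transformed cells (adjusted p = 0.363) and -0.4 ± 0.25 between tumours and controls (adjusted p = 0.219). It was called in none of the 21 alternatives of either tumour comparison. The Xrcc4 minus Lig4 signal was -3.16 to -3.06 log2 units in pre-transformed cells, -2.53 to -2.39 in controls and -2.84 to -2.13 in tumours. The shift of -0.65 from control to pre-transformed cells gave an exact permutation p of 0.2, the smallest for 10 splits (adjusted 0.45), and that of 0.57 from pre-transformed cells to tumours gave 0.0571 (adjusted 0.257).

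Nhej1 encodes XLF, which joins XRCC4 in bridging the ends, and was measured near the detection limit. Its brighter probe set read 48.5 and 44.1 in controls, 38.1, 43.3 and 38.6 in pre-transformed cells, and 18.1, 30.8, 16.8 and 22.8 in tumours 1 to 4. The tumours did not overlap the sorted arrays. The change against pre-transformed cells was -0.89 ± 0.28 (adjusted p = 0.0217), given without a fold because both groups were dim, and against controls it was at least 1.29-fold lower (-1.11 ± 0.32, adjusted p = 0.018). The other probe set was dimmer still, at 9.4 and 8.4 in controls, 9.5, 6.1 and 7.7 in pre-transformed cells, and 18.2, 16.3, 12 and 5.6 in tumours. Its direction was opposite, 0.64 log2 units against pre-transformed cells (adjusted p = 0.308), so no direction is settled for Nhej1. With the brighter probe set, the call against pre-transformed cells was lost without pre-transformed 1, 2 or 3 (adjusted p = 0.0547, 0.0747 and 0.0603). The call against controls was lost without control 1 or 2 (0.13 and 0.0863).

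**Figure D3:**
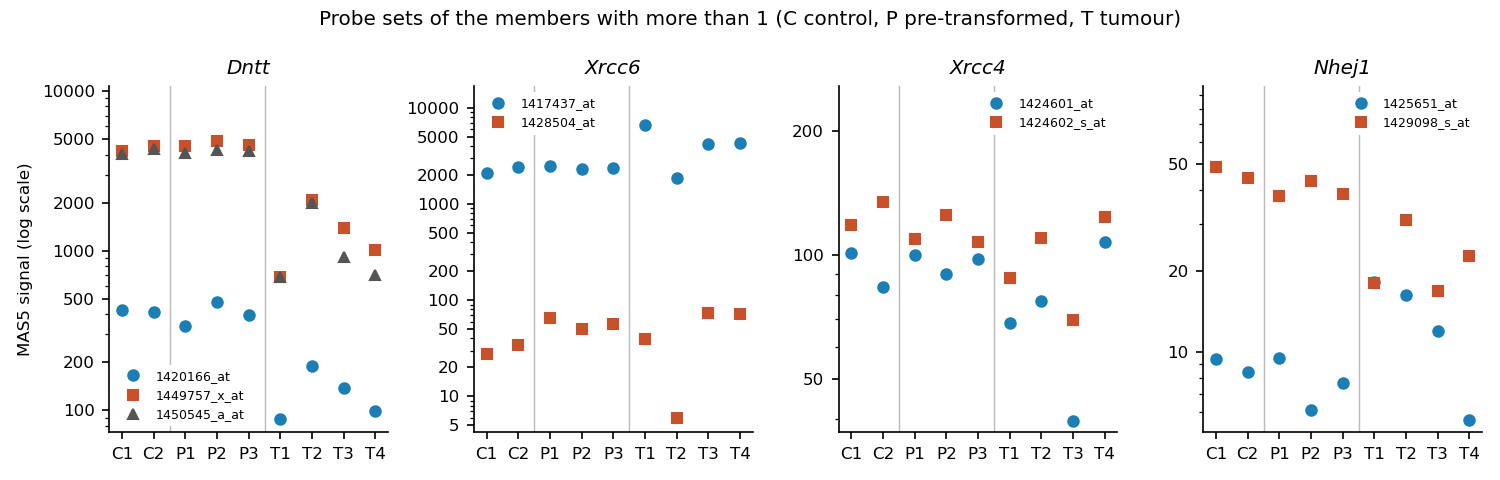
MAS5 signal on each array (log scale) for the probe sets of the 4 genes measured by more than 1, with controls (C), pre-transformed cells (P) and tumours (T) from left to right. The 3 Dntt probe sets fall together in tumours, whereas the Nhej1 probe sets run in opposite directions and both lie under 50.

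The 10 genes did not vary alike from tumour to tumour. The ratio of the highest to the lowest tumour was 8.31 for Polm, 5.6 for Rag1, 4.16 for Rag2, 3.53 for Xrcc5, 3.5 for Xrcc6 and 3.03 for Dntt. It was 1.72 to 1.83 for Prkdc, Lig4, Xrcc4 and Nhej1. The same ratio over the 5 sorted arrays was 1.09 for Rag1, 1.37 for Rag2 and 1.16 for Dntt. The SD between tumours was 1.18 for Rag1, above that of 88.1% of all genes, and 0.34 for Prkdc, above 37.1%, where the median gene had 0.42. The SD of Polm lay above that of 90.1% of all genes, that of Rag2 above 83.7%, Xrcc5 78.2%, Xrcc6 77.2% and Dntt 73.3%. For Lig4, Xrcc4 and Nhej1 the shares were 45.1%, 42.4% and 46.6%. Polm and the RAG genes thus stood highest in spread among the members, and the genes of the ligase complex near the middle of all genes.

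Tumour 1, from the oldest mouse, held the lowest signal for 7 members: Rag1, Rag2, Dntt, Polm, Xrcc5, Prkdc and Lig4. It also held the highest signal of Xrcc6. Tumour 4, from the youngest, held the highest signal for 5 members: Rag1, Rag2, Prkdc, Lig4 and Xrcc4. Tumour 2 was highest for Dntt, Xrcc5 and Nhej1, and tumour 3 for Polm. With 4 tumours of 4 ages and 1 array each, no test of age was made.

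**Figure D4:**
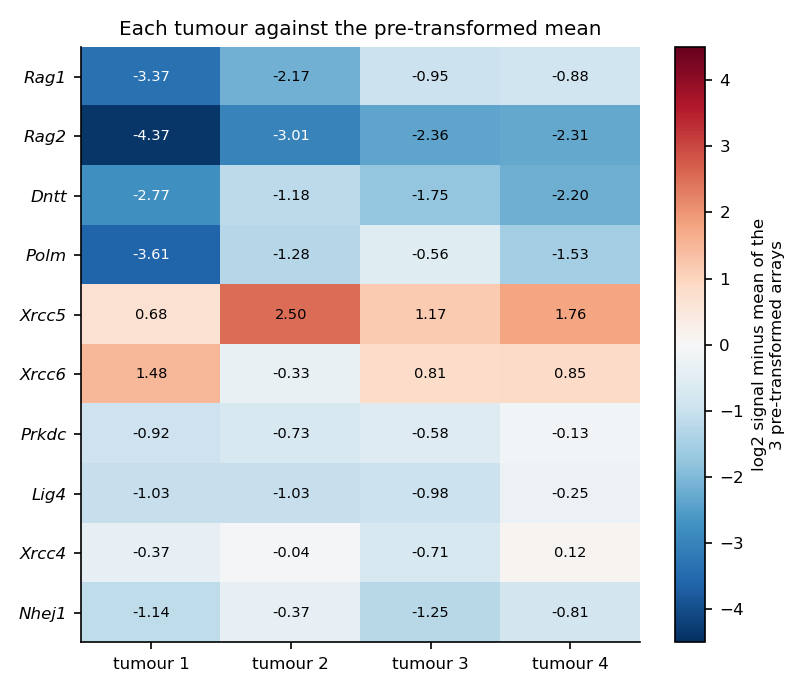
Log2 signal of each gene in each tumour minus the mean of the 3 pre-transformed arrays, printed in each cell and coloured from blue (lower) to red (higher). Tumour 1 shows the deepest values for Rag1 (-3.37), Rag2 (-4.37), Dntt (-2.77) and Polm (-3.61), and tumour 2 the highest for Xrcc5 (2.50) with Xrcc6 at -0.33.

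The 3 genes whose profiles over the 9 arrays lay nearest were listed for each of the RAG genes and Dntt. None was a member, but the members are few among the genes compared, so nothing about them is read from this. Likeness was the root mean square difference of gene-centred log2 signals over 11643 other genes. For Rag1 the nearest were Zfp950 (0.17), 4933424M12Rik (0.25) and Zfp329 (0.25), and the nearest member was Polm at rank 149 (0.46). For Rag2 they were B3gnt8 (0.27), Rabgap1l (0.28) and Sla2 (0.31), with Rag1 the nearest member at rank 243 (0.64). For Dntt they were Nedd4l (0.13), Siah1a (0.16) and Zfp672 (0.17), with Nhej1 the nearest member at rank 1124 (0.58). All of these genes had lower group means in tumours than in sorted cells, such as Sla2, an adaptor that dampens T cell receptor signalling, at 85.9 in tumours against 512 in pre-transformed cells. The likeness is a description that shares the same arrays and group structure. Of the neighbours, 4933424M12Rik was dim in every group, at 25.5 in controls, 25.6 in pre-transformed cells and 9.16 in tumours. B3gnt8 was dim in controls (36.6) and tumours (5.81).

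Transcription factors and cofactors of the RAG genes were mostly lower in tumours. Of 14 tested, 9 were called lower and 1 higher against pre-transformed cells, beside 31.0% and 23.9% of all genes, with a median change of -0.62 beside -0.12 for all genes. Over the 21 alternatives 7 to 11 were called lower, and against controls 8 were, with 3 to 9 over the alternatives (3 without control 1 or control 2). Of all genes 25.2% were called lower against controls, which is 2936 genes, and 1412 to 3265 with 1 array left out. Foxo3, a forkhead factor that acts downstream of phosphoinositide signalling, was at 227 against 692 (adjusted p = 2.31e-05). Runx1, a factor needed throughout thymocyte development, was at 92.9 against 410.4 (adjusted p = 0.000568). Nfatc1, a calcium-regulated factor, was at 39.3 against 224 (adjusted p = 0.00114), and Tcf3, which encodes the E proteins that bind E-boxes, at 333 against 674 (adjusted p = 0.00465). Foxo1 (-0.41, adjusted p = 0.235) and Ikzf1 (0.18, adjusted p = 0.402) did not pass. The member of the list called higher was Hmgb2, which encodes a DNA-bending protein that helps RAG bind its sites, at 3175 against 907 (1.81 ± 0.16, adjusted p = 2.25e-05).

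The genes that mark RAG2 protein for destruction in cycling cells moved the other way. CDK2 with cyclin A phosphorylates RAG2, and the SCF ligase with SKP2 and CKS1 then ubiquitinates it. Of 7 tested, 5 were called higher and 1 lower in tumours than in pre-transformed cells, with a median change of 1.23, beside 23.9% higher and 31.0% lower among all genes. After median centring 4 were called higher, and against controls 2 in place of 4, also without control 1. Of all genes 20.5% were called higher against controls, which is 2387 genes, and 1253 after median centring. Cks1b was at 4323 against 884 (adjusted p = 5.04e-06), Skp2 at 478 against 119 (adjusted p = 0.000649), Ccna2 at 1188 against 299.6 (adjusted p = 1.94e-05) and Cul1 at 445 against 190.3 (adjusted p = 0.000318). Cdk2 was called with overlapping groups (0.43, adjusted p = 0.046). The gene called lower was Cdkn1b, which encodes the cell cycle inhibitor p27, at 193 against 859 (adjusted p = 0.000132). RAG2 protein itself was not measured.

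In pre-transformed cells 2 genes of these lists were called lower than in controls, neither under every alternative. Hmgb2 was at 907 against 1553 in controls (-0.78 ± 0.10, adjusted p = 0.0167) and Ccna2, a cyclin of S phase, at 299.6 against 619.8 (-1.05 ± 0.14, adjusted p = 0.0185). These were the only genes of the 6 wider lists called in that comparison, where 1.11% of all genes were called higher and 0.524% lower. The lists held 14, 7, 4, 8, 16 and 7 tested genes. Hmgb2 was called in 10 of 17 alternatives and Ccna2 in 11. Hmgb2 lost its call without control 1 (adjusted p = 0.0776), control 2 (0.172) or pre-transformed 3 (0.0627), and Ccna2 without control 2 (0.154) or pre-transformed 3 (0.0678). Both were lost with a common floor (0.101 and 0.156), no trend (0.132 and 0.143) or all 9 arrays in the fit (0.441 and 0.264). Hmgb2 was also lost without suffixed probe sets (0.133), and Ccna2 with the mean of probe sets (0.0598). Both comparisons share the pre-transformed arrays, so a low value there lowers the first and raises the second. Against controls, Hmgb2 (1.03, adjusted p = 0.00136) and Ccna2 (0.94, adjusted p = 0.00314) were also called higher in tumours.

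Of 4 genes of the ubiquitin ligase that targets RAG1, 1 was called lower and 0 higher in tumours, a share near the 31.0% of all genes called lower. That gene was Rbx1, the RING subunit, at 21.9 against 119 in pre-transformed cells (at least 3.32-fold, adjusted p = 4.21e-05). Dcaf1, Cul4a and Ddb1 lay at 0.33, -0.15 and 0.15 log2 units and did not pass. Among 8 genes of end processing and accessory end joining, 3 were called higher (Tdp1, Poll and Wrn) and 1 lower, beside 23.9% and 31.0% of all genes. After median centring 1 was called higher. Wrn, a helicase, was at 108 in tumours and 70.7 in pre-transformed cells but at 104 in controls (0.06 against controls, adjusted p = 0.841). Tdp1, which removes proteins stuck to DNA ends, was at 237 against 103 (adjusted p = 0.000185). Poll, which encodes polymerase λ, was dim in both groups at 27.9 and 13. The gene called lower was Paxx, which encodes a Ku-binding relative of XRCC4, at 69.8 against 248 (-1.83 ± 0.21, adjusted p = 8.72e-05).

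The counts of called genes that sense and protect broken ends depended on the scaling. Of 16 break-sensing and end-protection genes, 7 were called higher and 0 lower against pre-transformed cells, with a median change of 0.44. At an unadjusted p under 0.05 in limma the count in either direction was 10, beside 7032 of the 11644 genes tested. After median centring 4 were called higher and 3 lower, and against controls the count went from 6 higher and 0 lower to 1 and 4. After quantile normalization 9 were called higher and 0 lower against pre-transformed cells, and 6 and 0 against controls. Against pre-transformed cells 2 were called lower without tumour 1 and 1 without tumour 3, and against controls 2 were called higher without control 1. On the signals as deposited, 23.9% of all genes were called higher and 31.0% lower against pre-transformed cells. Against controls these shares were 20.5% and 25.2%. The 3 genes of the complex that binds broken ends were among the 7 called higher. Mre11a was at 312 against 102 (adjusted p = 0.000102), Nbn at 137 against 54.6 (adjusted p = 0.000702) and Rad50 at 323 against 157 (adjusted p = 0.000713). H2ax, the histone variant phosphorylated around breaks, was at 1725 against 608 (adjusted p = 5.9e-05). Atm, the kinase that starts this response, was at 162 against 194 (adjusted p = 0.3), and Trp53bp1, which protects ends from resection, at 455 against 572 (adjusted p = 0.061).

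Alternative end joining is a back-up route that uses short homologies. Of its 7 genes 6 were called higher against pre-transformed cells, with a median change of 1.81, beside 23.9% of all genes. After median centring 5 were. Against controls these counts were 6 and 3, and 3 without control 1, beside 20.5% of all genes called higher. Polq, among the genes called, was dim in every group, at 18.5 in tumours, 4.89 in pre-transformed cells and 5.72 in controls. Parp1, which binds nicks and breaks, was at 833 against 238 (adjusted p = 5.22e-05), and Lig1, the ligase of DNA replication, at 996 against 293 (adjusted p = 0.000134). The nucleases Fen1, at 1264 against 247 (adjusted p = 8.68e-05), and Exo1, at 259.8 against a dim 43.4 (at least 5.94-fold, adjusted p = 9.81e-05), rose with them. Several of these genes also serve DNA replication. Lig3 did not pass (-0.07, adjusted p = 0.748). The difference between this list and the members was not tested.

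**Figure D5:**
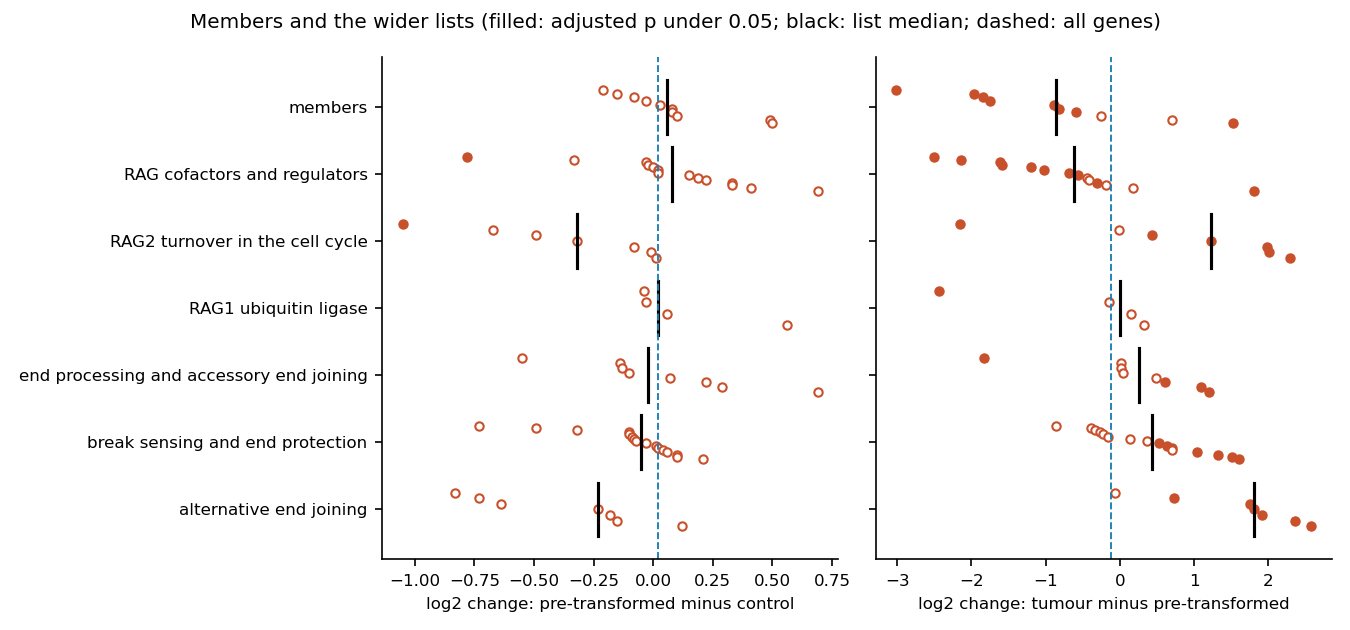
Log2 change of every tested gene (points) of the members and of 6 wider lists, in pre-transformed against control cells (left) and tumours against pre-transformed cells (right), with filled points for an adjusted p under 0.05. Black bars are list medians and the dashed line is the median of all genes. On the right the medians run from -0.86 for the members to 1.81 for alternative end joining, and on the left they run from -0.32 to 0.08.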

How the data were processed

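Expression was measured on 9 mouse oligonucleotide arrays (2 control, 3 pre-transformed and 4 tumour mice). The authors deposited 1 table of signal intensity per probe set, made with MAS5 per the submitters' processing notes; the sources used here give no version of it. Of 45101 probe sets 64 controls were left out. Probe set names came from the platform annotation: 34945 named 1 gene, 932 several and 9160 none. Values of 0 were set to 0.1 before log2. Probe sets at or above their array's median on at least 2 arrays were kept (26421), and the brightest stood for its gene (11644 genes). Tests used limma 3.58.1 in R 4.3.3 (lmFit, eBayes with trend) with Benjamini-Hochberg adjustment. The 5 sorted arrays were fitted by themselves, the tumour comparisons on all 9 arrays, without a block. The method was tested on simulated data. Plots used matplotlib 3.10.9 (Python 3.11.15).

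All 10 members were named. Of 6 wider lists the text names up to 4 genes with the smallest p in tumours, up to 2 in pre-transformed cells and a fixed set; for Rag1, Rag2 and Dntt it names the 3 nearest profiles. Members and lists were chosen with earlier results of these data known. Other named list genes (Cul4a, Ddb1, Lig3, Polq) and the pairs of members were chosen after their values were seen. Of the lists, Hmgb1 and Dclre1c, among others, were not analysed here. Promoter sequences are from RefSeq and matched 9 of 10 members. Alternatives covered the filter, scaling, offset, floor, choice of probe set, trend, arrays in the fit, a replicate block and each array left out. The number of arrays limits the precision.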

Additional observations from a re-analysis of the deposited data

Results flagged for a closer look

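Lig4 in tumour 4 stood apart from the other 3 tumours. Its signal there was 827.2, beside 481, 481.3 and 498.5, and the gap to the nearest tumour made up 0.934 of the whole log2 range of the group, above Dixon's critical value for 4 samples. Of the 15 probe sets of the 10 genes this was the only one to stand out in that way, and chance gives about 1 such group in 20. The difference in Lig4 between tumours and pre-transformed cells was called with tumour 4 included and without it.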

How the results depend on the processing

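The falls of Rag1, Rag2, Dntt and Lig4 and the rise of Xrcc5 in tumours against pre-transformed cells kept direction and call under all 21 alternatives, and against controls Rag2 and Dntt did so. After quantile normalization 1 member, in place of 0, was called higher in pre-transformed cells than in controls, and 4, in place of 7, were called lower in tumours than in pre-transformed cells. Against controls, 0 members, in place of 1, were called higher after median centring, and 2, in place of 4, were called lower with only the groups compared in the fit. With 1 array left out, tumours against pre-transformed cells gave 4 to 7 lower and 1 to 2 higher, tumours against controls 2 to 6 lower and 0 to 2 higher, and pre-transformed cells against controls 0. Nhej1 reversed when probe sets with cross-hybridisation suffixes were left out, to 0.64 against pre-transformed cells (adjusted p = 0.306) and 0.42 against controls (adjusted p = 0.57), because the other probe set then stands for it. The cause of the other changes was not tested. Centring each array on its median shifted the all-gene median change from -0.12 to -0.38 in tumours against pre-transformed cells, from -0.08 to -0.47 against controls, and from 0.02 to -0.11 before tumour formation, while the direction of every member in the tumour comparisons held. The replicate numbers name different mice and samples with the same number did not deviate together (correlations of -0.024 to 0.085). With the replicate block 7 members were called lower and 1 higher against pre-transformed cells, 5 lower and 1 higher against controls, and 0 before tumour formation. Dim signals limit Nhej1 and Polm.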
